A study of Sus scrofa with 24 samples.

Results

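The liver RNA of uncastrated boars was examined to see what an injected androgen did in animals whose testes were intact. The members were all pigs that the labels give as uncastrated boars, 7 of the 24 libraries of the trial, with 1 library per animal. Animals 19 and 20 had received Sustanon, a preparation of testosterone esters, as intramuscular injections of 4 mg/kg b.w. Myodin, which contains a nandrolone ester, had been given to animals 22, 23 and 24 at 5 mg/kg b.w., and animals 25 and 27 were untreated controls. In the paper's serum measurements, nandrolone was found in control boar 27 and not in control boar 25. Testosterone was found in every one of these boars but Myodin boar 22. The part of these serum levels in the values below was not tested. The other 17 libraries came from castrated boars and sows given the same 3 treatments, and they were used for the spread between animals and for the question whether intact boars responded differently. All pigs were hybrids of the Large White, Landrace and Duroc breeds, and the controls were housed in a room apart from the treated animals, so that housing and treatment cannot be told apart. Each tested group also had pens of its own, so that pen and preparation cannot be told apart. The preparations differed in dose as well as in compound, and only 2 control boars carry every comparison with controls.

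Testosterone and nandrolone bind the androgen receptor, a nuclear receptor that is also made in the liver. The liver breaks down circulating steroids through hydroxysteroid dehydrogenases, cytochrome P450 enzymes, sulfotransferases and glucuronosyltransferases. Some of these families also clear skatole, which together with the testicular steroid androstenone causes boar taint. In a castrate or a sow an injected androgen meets little hormone of testicular origin, while in an intact boar it adds to the animal's own testosterone and, through the pituitary, can lower it.

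The boar libraries held between 9267780 and 12359045 counts, with 9919 to 10148 genes detected, and their 10 most abundant genes took between 20.04% and 27.3% of the counts. Hepatocyte genes dominated in all 7, with albumin between 59108 and 136819 CPM (counts scaled to library size), and the 4 measured hepatocyte markers summed to between 78951 and 154074 CPM. The 3 measured skeletal muscle markers summed to at most 1.23 CPM and the 1 measured pancreas marker reached at most 0.196 CPM. The Y-linked gene EIF1AY was present in every boar, with between 327 and 506 counts. It went against the label in 3 other libraries, with 476 counts in the library labelled control sow 16, 434 in the library labelled control sow 18 and 1 in the library labelled castrated control 15. These 3 entered the fit under their labels, and the counts of DEGs and the castrate and sow responses quoted for single genes in the text are also given without them where they changed. In bulk liver, fewer cells of a type and less RNA per cell cannot be told apart.

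Few genes passed the adjusted threshold between the injected boars and the controls. Among the 8754 genes tested, 5 differed between the 5 injected and the 2 control boars with an adjusted p under 0.05 and a log2 fold change of 1 or more in either direction (DEGs, 0.0571% of the genes tested), 1 higher and 4 lower. Each steroid group had equal weight in this contrast, and the count was 3 with the injected boars fitted as 1 group. At an unadjusted p under 0.05, 518 genes were higher (5.92%) and 415 lower (4.74%). The groups did not overlap in 521 genes that were higher (5.95%) and 460 that were lower (5.25%) in every injected boar. With only 2 controls, a lack of overlap alone says little. The median log2 fold change of all genes was 0.01.

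The gene that rose was CHKA, choline kinase alpha, which takes the first step from choline to phosphatidylcholine (RefSeq annotation of Sscrofa11.1, chr2:4788508-4846667). Its level was 57.6 and 68.4 CPM in control boars 25 and 27, 136 and 122 CPM in Sustanon boars 19 and 20, and 134, 198 and 143 CPM in Myodin boars 22, 23 and 24. All 5 injected boars were above both controls, and the log2 fold change was 1.18 ± 0.20 (SE, adjusted p = 0.0282). The log2 fold change was 1.03 with Sustanon alone and 1.33 with Myodin alone.

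CYP1A1, a cytochrome P450 that oxidizes aromatic compounds (chr7:58802887-58809155), fell. The controls had 68.4 and 44.2 CPM, the Sustanon boars 2.57 and 3.20 CPM, and the Myodin boars 11.8, 6.03 and 20.7 CPM. The groups did not overlap, and the 2 Sustanon boars were the lowest of the 7. The log2 fold change was -3.21 ± 0.59 (SE, adjusted p = 0.0487).

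TNFAIP8L1, a member of the TNFAIP8 family of lipid-binding proteins (chr2:74203753-74220811), fell from 40.4 and 44.2 CPM in the controls to between 12.1 and 25.4 CPM in the injected boars, with a log2 fold change of -1.34 ± 0.22 (SE, adjusted p = 0.0282). The remaining DEGs have no gene symbol in the tables and were singled out after their values were seen. ENSSSCG00000038557 had 41.5 and 48.6 CPM in the control boars and between 1.07 and 4.45 CPM in the injected boars, with a log2 fold change of -4.07 ± 0.49 (SE, adjusted p = 0.000747). ENSSSCG00000034853 had 77.8 and 71.5 CPM in the control boars and between 2.34 and 15.7 CPM in the injected boars, with a log2 fold change of -2.94 ± 0.51 (SE, adjusted p = 0.0282). For both, it was the control boars that stood apart from the rest of the trial: over the castrates and sows, treated or not, ENSSSCG00000038557 lay between 0.703 and 2.87 CPM apart from Myodin castrate 9, which had 22.1 CPM, and ENSSSCG00000034853 lay between 5.07 and 15.8 CPM apart from the same animal, which had 64.8 CPM.

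**Figure D1:**
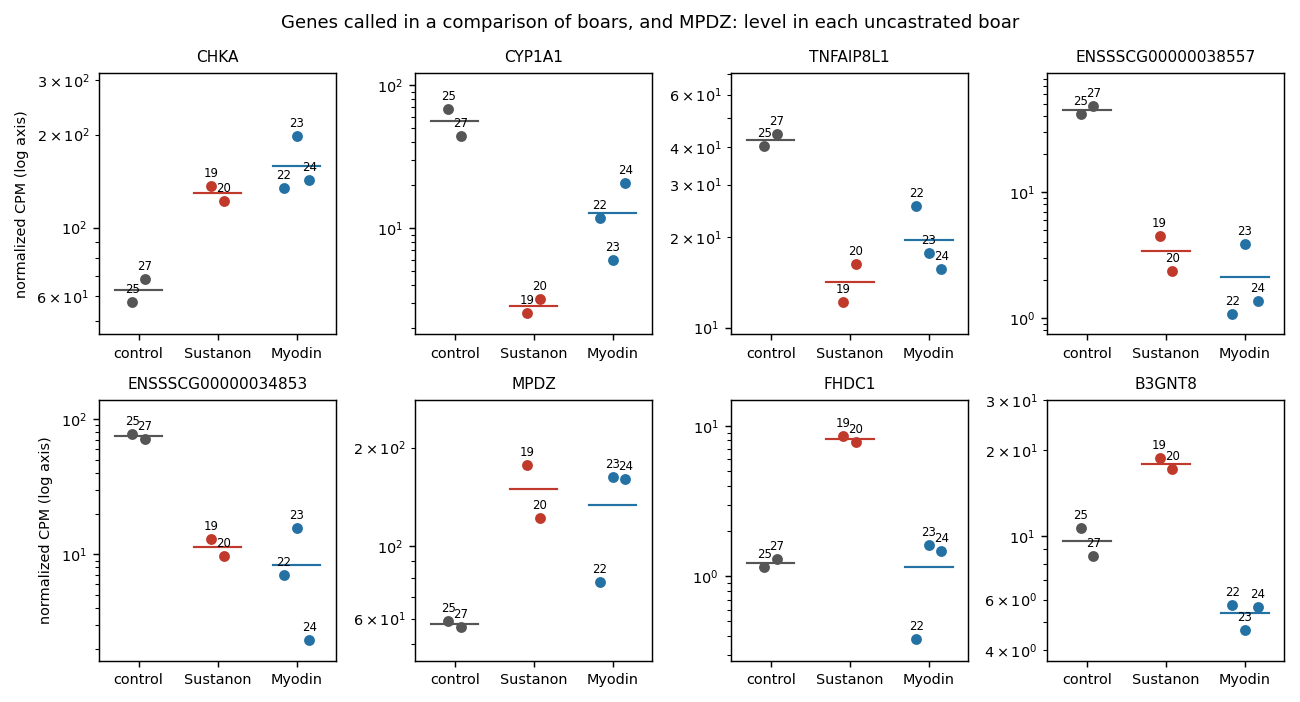
Level of 8 genes in each uncastrated boar, as normalized CPM on a log axis, by treatment. Points are animals, labelled with their numbers, and bars are group means. CHKA and MPDZ lie higher and CYP1A1, TNFAIP8L1, ENSSSCG00000038557 and ENSSSCG00000034853 lower in all 5 injected boars than in the 2 controls, while FHDC1 and B3GNT8 are highest in the 2 Sustanon boars.

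The DEGs depended on single animals and on which libraries were fitted. The count was 1 without control boar 25, control boar 27, Sustanon boar 19 or Sustanon boar 20, 2 without Myodin boar 23 and 17 without Myodin boar 22. It was 1 without the 3 libraries whose Y-linked counts go against their labels. When only the 7 boars were fitted it was 2 as 3 groups, with 1 of the 5 among them, and 0 as 2 groups (injected and control), where the smallest adjusted p was 0.0542 and 478 genes had an unadjusted p under 0.05 in edgeR. ENSSSCG00000038557 was called in 14 of 15 alternative fits, CHKA in 6, and the log2 fold change of CHKA kept between 0.96 and 1.31.

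Further genes are named by smallest unadjusted p, among genes whose log2 fold change was 1 or more in either direction and whose groups did not overlap. None of them passed the adjusted threshold, so their values are given as they stand. MPDZ, a scaffold protein of tight junctions, had 59.0 and 56.6 CPM in the controls and between 77.4 and 177 CPM in the injected boars. PAX9, a developmental transcription factor, had 2.03 and 2.62 CPM in the controls and between 3.53 and 11.03 CPM in the injected boars. NCOA2, a coactivator of steroid receptors, had 88.8 and 77.8 CPM in the controls and between 96.0 and 265 CPM in the injected boars. HSD17B7, which acts on oestrone and in cholesterol synthesis, had 49.2 and 98.2 CPM in the controls and between 137 and 278 CPM in the injected boars (log2 fold change 1.38 ± 0.34, SE, adjusted p = 0.253).

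Genes of the body clock were on both sides. DBP, a clock output factor, had 7.78 and 11.6 CPM in the controls and between 14.7 and 53.7 CPM in the injected boars. NPAS2, a partner of the clock protein ARNTL, went the other way, from 7.25 and 8.65 CPM in the controls to between 2.05 and 3.92 CPM in the injected boars. Of 12 clock genes tested, 2 were higher and 1 lower at an unadjusted p under 0.05, NPAS2 being the lower one, against 5.92% and 4.74% of all genes.

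Among the genes with lower values in every injected boar, MATN2, a matrix protein, had 10.1 and 31.1 CPM in the controls and between 3.77 and 6.64 CPM in the injected boars. LTBP2, which associates with elastic fibres, had 35.4 and 49.8 CPM against between 9.66 and 24.9 CPM, PARVB, a focal adhesion protein, had 10.9 and 9.86 CPM against between 1.85 and 4.84 CPM, and CDON, a cell surface receptor, had 9.55 and 20.9 CPM against between 2.34 and 6.37 CPM. Other genes moved with MATN2 and were looked at after their values were seen: COCH had 1.503 and 8.05 CPM, BNC1 0.707 and 2.31 CPM, CRB2 1.24 and 3.22 CPM and WT1 1.41 and 1.91 CPM in the control boars, with control boar 27 the higher each time, against at most 0.976 CPM of any of the 4 in an injected boar. Sustanon sows 4 and 6 also stood high, with 23.8 and 17.998 CPM of MATN2 and 11.3 and 7.13 CPM of COCH. The 7 measured stellate and stromal markers summed to 411 and 479 CPM in the controls and to between 225 and 571 CPM in the injected boars, so that these groups overlapped through Sustanon boar 20, which had the highest sum. The other 4 injected boars lay below both controls, at 225 to 286 CPM. The 7 measured endothelial markers summed to 1046 and 928 CPM in the controls and to between 525 and 897 CPM in the injected boars, without overlap. The part of these stromal and endothelial markers in the values above was not tested.

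The remaining genes named in this comparison were SLC25A21, S100A1, VPS13D, STAU2, SELENOW and ADGRV1, all higher in every injected boar (unadjusted p between 0.000878 and 0.00262), and FABP1, the liver fatty acid binding protein, which was lower in every injected boar.

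With Sustanon alone, no gene was a DEG in the 2 Sustanon boars against the 2 control boars with edgeR (0%, smallest adjusted p = 0.0675), while 550 genes were higher (6.28%) and 424 lower (4.84%) at an unadjusted p under 0.05. DESeq2 called 49 genes and limma on the deposited log2 values 5. Groups of 2 animals did not overlap in 24.4% of genes that were higher and 25.7% that were lower, so a lack of overlap alone says little in this comparison. FHDC1, a formin that acts on actin and microtubules, had 8.55 and 7.82 CPM in the Sustanon boars against 1.15 and 1.31 CPM in the controls, a log2 fold change of 2.73 ± 0.47 (SE, adjusted p = 0.0675).

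CYP1A2, which hydroxylates skatole and caffeine, had 216 and 188 CPM in the control boars and 7.44 and 2.45 CPM in the Sustanon boars. The Myodin boars were spread widely, with 301 CPM in boar 22, 13.4 CPM in boar 23 and 61.3 CPM in boar 24. The log2 fold change with Sustanon was -5.34 ± 1.27 (SE, adjusted p = 0.159). CYP1A1 went with it, with a log2 fold change of -4.28 ± 0.85 (SE, adjusted p = 0.115).

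CYP2A19, the pig counterpart of the skatole-oxidizing CYP2A6, differed even between the controls, with 6.72 CPM in boar 25 and 178 CPM in boar 27. It was at 1.03 and 1.98 CPM in the Sustanon boars and at 304, 3.58 and 28.9 CPM in Myodin boars 22, 23 and 24. SULT1B1, a sulfotransferase, had 104 and 69.2 CPM in the controls and 30.9 and 27.7 CPM in the Sustanon boars, and UGT2B31, a glucuronosyltransferase, had 821 and 650 CPM against 461 and 313 CPM. CYB5R3, a reductase that passes electrons to cytochrome b5, was on the other side, with 670 and 635 CPM against 345 and 278 CPM. Of 14 genes tested in the list of steroid and skatole clearance, 5 were lower and 1 higher with Sustanon at an unadjusted p under 0.05, against 4.84% and 6.28% of all genes, and the list's median log2 fold change was 0.02 against -0.01 for all genes. The count of 5 was 3 without control boar 25, 3 without Sustanon boar 19 and 2 without Sustanon boar 20.

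The flavin monooxygenases oxidize nitrogen and sulfur compounds. Of 5 tested, 1 was higher and 1 lower with Sustanon at an unadjusted p under 0.05, against 6.28% and 4.84% of all genes. FMO1 had 1014 and 1230 CPM in the controls and 7211 and 4966 CPM in the Sustanon boars, and among the Myodin boars it had 786 CPM in boar 22, 6530 CPM in boar 23 and 3034 CPM in boar 24. Its log2 fold change with Sustanon was 2.44 ± 0.74 (SE, adjusted p = 0.258). FMO5 was lower, with 161 and 112 CPM against 290 and 376 CPM in the controls. How reads shared by related genes were counted is not given in the sources used here, so values of the FMO, CYP1A and HSD17B families are uncertain.

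Of 12 steroid dehydrogenases and reductases tested, 3 were higher and 1 lower with Sustanon at an unadjusted p under 0.05, against 6.28% and 4.84% of all genes. HSD17B6, which oxidizes androstanediols back to active androgen, had 431 and 338 CPM in the controls and 1046 and 703 CPM in the Sustanon boars. HSD17B11, which also acts on androstanediol and sits on lipid droplets, had 1467 and 1732 CPM in the controls and 433 and 523 CPM in the Sustanon boars. HSD11B1, which regenerates cortisol, had 1100 and 1059 CPM against 1437 and 1366 CPM.

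HSD17B2, which inactivates testosterone to androstenedione, lay between 234 and 424 CPM in all 6 castrate and sow controls, but at 3.71 and 28.5 CPM in the control boars. After Sustanon it was at 1.88 and 1.60 CPM in the boars (log2 fold change -3.19, unadjusted p = 0.0677) and between 2.70 and 35.3 CPM in the castrates and sows, where it fell (log2 fold change -4.61, adjusted p = 0.00472, and adjusted p = 0.0434 without the 3 libraries in doubt). Myodin boar 22, with 119 CPM, lay just above the castrates and sows given Myodin, which had between 40.4 and 111 CPM. Myodin boars 23 and 24 had 1.23 and 4.39 CPM.

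Of 19 genes of fat synthesis and storage tested, 8 were lower and 1 higher with Sustanon at an unadjusted p under 0.05. The shares of all genes were 4.84% and 6.28%, and no list member was a DEG. Of the 19, 13 lay below 0, against 51.3% of all genes, and 6 above, with a median log2 fold change of -0.48. By boar, the list's median, as log2 CPM minus the control mean, was -0.60 and -0.37 in Sustanon boars 19 and 20. It was 0.16, -0.52 and -0.61 in Myodin boars 22, 23 and 24. The desaturase gene FADS1 had 210 and 156 CPM in the controls and 29.3 and 19.2 CPM in the Sustanon boars, and its neighbour FADS2 had 153 and 126 CPM against 36.7 and 20.8 CPM. DGAT2, which makes triglycerides, had 722 and 436 CPM against 123 and 184 CPM. MOGAT2, which makes diacylglycerol, had 84 and 57 counts in the controls and 0 and 1 count in the Sustanon boars, a ratio of 148 with a counting interval from 26.1 to 5885 (95%, exact, counting error only). PLIN2, which coats lipid droplets, had 185 and 288 CPM against 59.6 and 55.5 CPM, FABP1 had 1238 and 543 CPM against 242 and 136 CPM, and PNPLA3, a lipase, had 23.2 and 11.2 CPM against 5.73 and 1.60 CPM. LPIN1, a phosphatidate phosphatase, was the 1 member higher at an unadjusted p under 0.05. It had 30.8 and 31.6 CPM in the Sustanon boars against 16.9 and 9.66 CPM in the controls. The count of 8 was 4 without Sustanon boar 19 and 4 without Sustanon boar 20. All 3 measured adipocyte markers were below 0 with Sustanon (median log2 fold change -0.69), against 51.3% of all genes. None of the 3 had an unadjusted p under 0.05. They summed to 83.1 and 72.6 CPM in the controls and to 48.5 and 62.8 CPM in Sustanon boars 19 and 20. The part of these markers in the fat gene values was not tested.

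Fatty acid oxidation genes went both ways, with 4 of 19 higher and 4 lower at an unadjusted p under 0.05, against 6.28% and 4.84% of all genes. ACAA2, the last enzyme of mitochondrial beta-oxidation, had 210 and 461 CPM against 27.4 and 23.9 CPM. ACOT12, a cytosolic acetyl-CoA hydrolase, was higher, with 708 and 557 CPM against 263 and 145 CPM, and so was the peroxisomal CROT, with 1317 and 1174 CPM against 514 and 405 CPM.

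**Figure D2:**
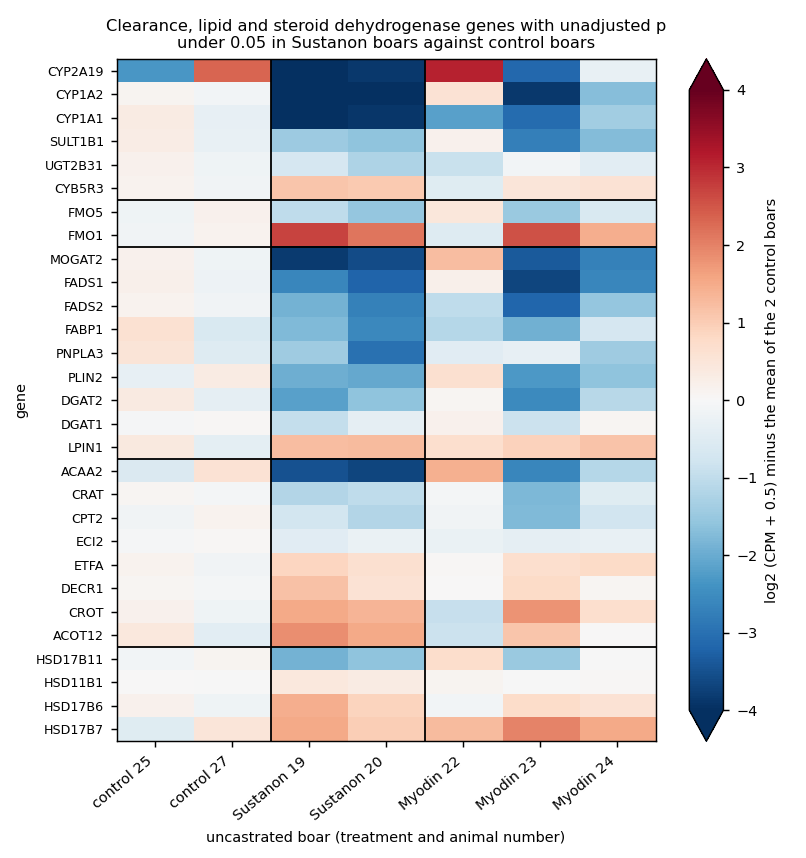
Clearance, flavin monooxygenase, fat synthesis, fat oxidation and steroid dehydrogenase genes (blocks from the top) with an unadjusted p under 0.05 in the Sustanon comparison, which chose them. Colour is log2 (CPM + 0.5) of each boar minus the mean of the 2 control boars, and values beyond 4 are drawn at the end of the scale. CYP1A2 and ACAA2 are low in both Sustanon boars and Myodin boar 23, and above both controls in Myodin boar 22.

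Among the lists on amino acids, 4 of 22 genes of urea synthesis and amino acid breakdown were higher and 1 was lower with Sustanon at an unadjusted p under 0.05, against 6.28% and 4.84% of all genes. TDO2, which starts tryptophan breakdown, had 2574 and 2451 CPM in the Sustanon boars against 1016 and 820 CPM in the controls. Of 12 amino acid carriers, 4 were higher and 2 lower, against the same shares. SLC38A2 had 475 and 368 CPM against 155 and 233 CPM, and the glutamate carrier SLC1A2 had 14.1 and 5.84 CPM against 1.24 and 1.21 CPM. RORA, a nuclear receptor of the clock, had 190 and 47.2 CPM against 21.9 and 22.2 CPM, and TET3, which oxidizes methylated cytosine, had 367 and 264 CPM against 74.3 and 67.5 CPM. The 18 genes of cholesterol synthesis and uptake included 1 higher at an unadjusted p under 0.05 and none lower, and the 8 genes of the growth hormone and IGF axis included none in either direction. Androgen receptor mRNA had 29.2 and 37.1 CPM in the controls, 31.1 and 22.6 CPM with Sustanon and 35.2, 24.4 and 12.6 CPM with Myodin.

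Other genes named for Sustanon by the rule, with an unadjusted p between 0.000106 and 0.000606, were SMS, VPS13D, TRAF1, PAQR3, PTPN14, NCOA2, PAX9, MPDZ and CHKA, which were higher, and THEM6, PELI3, ID4, CA2, OLFM1 and PLA2G7, which were lower. CA2, carbonic anhydrase 2, had 9.41 and 6.598 CPM in the Sustanon boars against 37.3 and 39.2 CPM in the controls. PLA2G7, which hydrolyses platelet-activating factor, had 18.6 and 36.2 CPM against 111 and 109 CPM.

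In the 3 Myodin boars against the 2 controls there were 2 DEGs (0.0228%), CHKA, which rose (log2 fold change 1.33 ± 0.22, SE, adjusted p = 0.0266), and ENSSSCG00000038557, which fell (log2 fold change -4.43 ± 0.59, SE, adjusted p = 0.00341). At an unadjusted p under 0.05, 505 genes were higher (5.77%) and 306 lower (3.5%). Without Myodin boar 22 there were 99 DEGs, 74 higher and 25 lower, and without control boar 25 or 27 there was 1. When only the 7 boars were fitted there was 1 DEG, and it was neither of these genes.

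The interferon response, the set of genes that cells switch on against viruses, lay higher with Myodin. All 25 measured genes of the interferon and antigen processing list had a log2 fold change above 0, against 53.3% of all genes, and 20 of the 25 had an unadjusted p under 0.05, against 5.77% of all genes. The list's median log2 fold change was 1.85, against 0.03 for all genes, and no member was a DEG. The animals were far apart. The list's median, as log2 CPM minus the control mean, was 0.03 in Myodin boar 22, 1.59 in boar 23 and 2.77 in boar 24, and it was 0.13 and -0.06 in Sustanon boars 19 and 20. All 25 genes were above the control mean in boars 23 and 24 and 15 in boar 22. The controls differed too, with 22 of the 25 above their mean in control boar 27 and 3 in control boar 25. In castrates and sows given Myodin, with the 3 libraries in doubt included, 24 of the 25 were below 0 (median log2 fold change -0.54). There 5 were lower and 0 higher at an unadjusted p under 0.05, against 442 and 478 of all 8754 genes. After Sustanon 24 of the 25 were below 0 in castrates and sows as well (median log2 fold change -0.75). At that threshold 14 were lower and 0 higher, against 851 and 880 of all genes. Of the 25, 1 was a DEG there, against 2.03% of all genes.

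UBE2L6, the enzyme that attaches ISG15 to proteins, had 4.77 and 7.54 CPM in the controls and 9.37, 41.1 and 124 CPM in Myodin boars 22, 23 and 24 (log2 fold change 3.24 ± 0.72, SE, adjusted p = 0.192). BST2, which tethers virus particles to the cell, had 14.1 and 22.6 CPM in the controls and 23.5, 75.9 and 146 CPM. IRF7, the transcription factor that amplifies the response, had 11.8 and 18.6 CPM in the controls and 18.1, 81.2 and 150 CPM. The peptide transporter TAP1 had 18.8 and 21.9 CPM in the controls and 25.6, 53.2 and 124 CPM. In all of these boar 24 was the highest and boar 23 the next. Boar 22 lay above both controls in UBE2L6, BST2 and TAP1 and between them in IRF7.

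Among the other genes named for Myodin, HERC6 had 22.4 and 30.6 CPM in the controls and 37.0, 150 and 195 CPM with Myodin, ETV7 had 3.27 and 6.64 CPM and then 8.06, 26.1 and 47.2 CPM, and TRIM34 had 16.9 and 17.6 CPM and then 25.3, 45.1 and 87.1 CPM. SAMD9 had 53.6 and 54.3 CPM in the controls and 74.5, 211 and 145 CPM, highest in boar 23. TRIM21, the cytosolic antibody receptor, DRAM1, a regulator of autophagy, and AIF1, a macrophage gene, were also among the 20 genes named for Myodin, all higher in each of the 3 animals.

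Markers of leukocytes, red cells and hepatocytes were also read in these boars. CD3E, a T cell receptor subunit, had 6.01 and 3.62 CPM in the controls and 3.53, 14.4 and 15.1 CPM in Myodin boars 22, 23 and 24, and NKG7, a gene of cytotoxic lymphocytes, had 10.5 and 7.34 CPM and then 11.5, 22.3 and 23.8 CPM. Of the 10 measured leukocyte markers, 3 were higher and 0 lower with Myodin at an unadjusted p under 0.05. The shares of all genes were 5.77% and 3.5%. The 10 markers summed to 1061 and 1125 CPM in the controls and to 921, 1075 and 1385 CPM in Myodin boars 22, 23 and 24. The 4 measured red cell markers summed to 867 and 1893 CPM in the controls and to 988, 431 and 170 CPM in Myodin boars 22, 23 and 24. Of the 4 measured hepatocyte markers, 2 lay above 0 and 2 below with Myodin (median log2 fold change -0.02), albumin being one of those below, with 136819 and 130944 CPM in the controls and 108883, 73968 and 59108 CPM. None of these markers was at 0 in all boars, and their part in the interferon values was not tested.

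The interferon count was 9 of 25 without Myodin boar 24, 18 without Myodin boar 23, 21 without Myodin boar 22 and 11 without control boar 25. When Myodin boar 22 was left out, 10 members were DEGs, against 99 of all 8744 genes in that fit. In the Sustanon boars 0 of the 25 were higher at an unadjusted p under 0.05, against 6.28% of all genes. IFITM3 was the 1 lower at that threshold, against 4.84%. In the direct comparison of the steroids, 19 of the 25 were lower with Sustanon than with Myodin at an unadjusted p under 0.05 (5.68% of all genes) and none was a DEG.

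**Figure D3:**
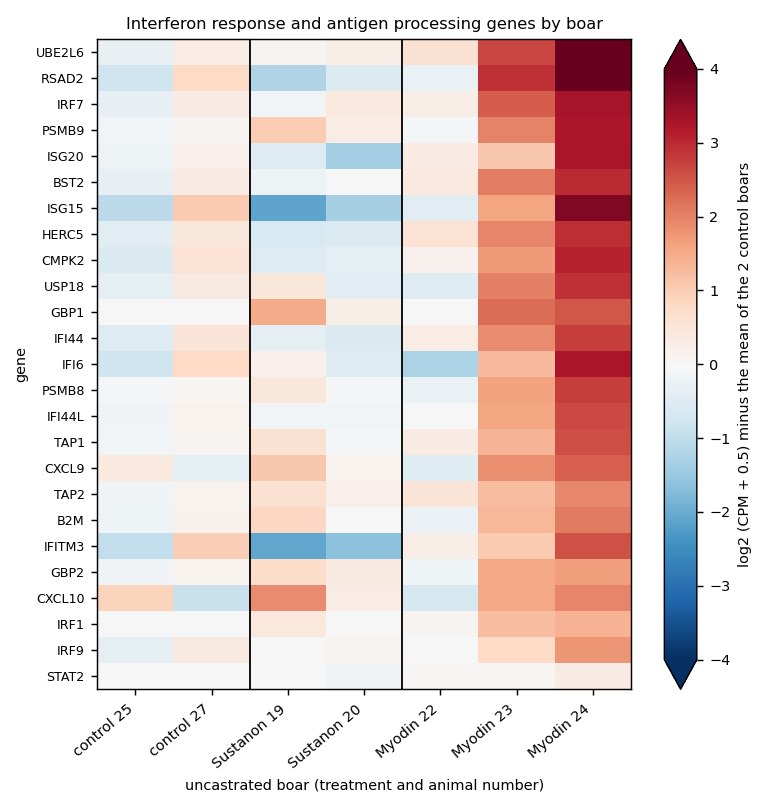
The 25 measured genes of interferon response and antigen processing in each boar, ordered by log2 fold change with Myodin. Colour is log2 (CPM + 0.5) minus the mean of the 2 control boars, and values beyond 4 are drawn at the end of the scale. Myodin boars 24 and 23 lie above the control mean in all 25 genes, while the medians of Myodin boar 22 and of both Sustanon boars are within 0.13 of it.

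Among the genes named for lower values with Myodin, ELN, elastin, had 4.51 and 6.84 CPM in the controls and 1.92, 0.471 and 1.17 CPM in the Myodin boars (log2 fold change -2.22 ± 0.48, SE, adjusted p = 0.192). LTBP4 had 34.6 and 49.4 CPM in the controls and between 15.4 and 26.0 CPM, and TNXB, tenascin X, had 23.2 and 32.4 CPM and then between 9.57 and 13.1 CPM. The 7 measured stellate and stromal markers summed to 286, 225 and 264 CPM in Myodin boars 22, 23 and 24. These sums were below the 411 and 479 CPM of the controls. With Myodin, 6 of the 7 had a log2 fold change below 0, where 46.7% of all genes lay. Of the 7 markers, 1 was lower at an unadjusted p under 0.05, against a share of 3.5% over all genes. Their part in the matrix values was not tested.

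Of 20 immediate early and stress genes, 6 were higher and 1 lower with Myodin at an unadjusted p under 0.05, against 5.77% and 3.5% of all genes. GADD45B had 9.55 and 10.8 CPM in the controls and 12.4, 69.1 and 39.2 CPM in Myodin boars 22, 23 and 24, and ATF3 had 8.04 and 10.5 CPM and then 14.3, 55.4 and 34.3 CPM. Of 11 acute phase genes, 2 were higher and none lower at that threshold, and none was a DEG. CRP, C-reactive protein, had 293 and 916 CPM in the controls and 2291, 1569 and 1570 CPM with Myodin, above both controls in all 3 animals, against 497 and 526 CPM with Sustanon. The other lists had between 0 and 3 members higher and 0 to 4 lower with Myodin. Among 18 genes of cholesterol synthesis and uptake 3 were higher and none lower, and 15 of the 18 lay above 0, against 53.3% of all genes.

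The study chose a panel of liver genes as markers of treatment on these samples, so its direction is not independent evidence, and 15 of them are described here. In the Sustanon boars 2 of the 15 were higher and 1 lower at an unadjusted p under 0.05, against 6.28% and 4.84% of all genes. In the Myodin boars 0 were higher and 4 lower, against 5.77% and 3.5%. No panel gene was a DEG against the control boars in either.

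THEM5, a mitochondrial thioesterase that acts on cardiolipin (chr4:97319579-97358602) and part of the panel, had 24.7 and 18.1 CPM in the control boars and 13.5 and 15.2 CPM in the Sustanon boars, but 2.38, 5.28 and 2.73 CPM in the Myodin boars (log2 fold change -2.63 ± 0.64, SE, adjusted p = 0.192). In castrates and sows it ran the other way, at no more than 0.281 CPM in the 6 controls, between 0.623 and 4.75 CPM after Myodin and between 3.54 and 17.8 CPM after Sustanon. The Myodin boars thus lay within or just above the range of Myodin-treated castrates and sows, and the control boars lay above every other animal of the trial.

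MAPK4, an atypical MAP kinase (chr1:100107429-100291594) and part of the panel, had 11.9 and 7.04 CPM in the control boars, 7.18 and 10.8 CPM in the Sustanon boars and 1.38, 4.99 and 1.07 CPM in the Myodin boars. The castrate and sow controls had between 0.114 and 0.404 CPM, those given Myodin between 1.52 and 1.96 CPM and those given Sustanon between 3.44 and 10.2 CPM.

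CACNA1H, a T-type calcium channel, had 18.7 and 10.4 CPM in the control boars, 15.1 and 29.1 CPM with Sustanon and 2.53, 7.82 and 2.34 CPM with Myodin, and its log2 fold change with Myodin was -1.79 ± 0.52 (SE, adjusted p = 0.304). ASB4, part of a ubiquitin ligase, had 19.3 and 8.75 CPM in the control boars, 36.2 and 21.7 CPM with Sustanon and 3.30, 10.6 and 3.81 CPM with Myodin. In both genes Myodin boar 23 was the highest of the 3, and in ASB4 it overlapped the controls.

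**Figure D4:**
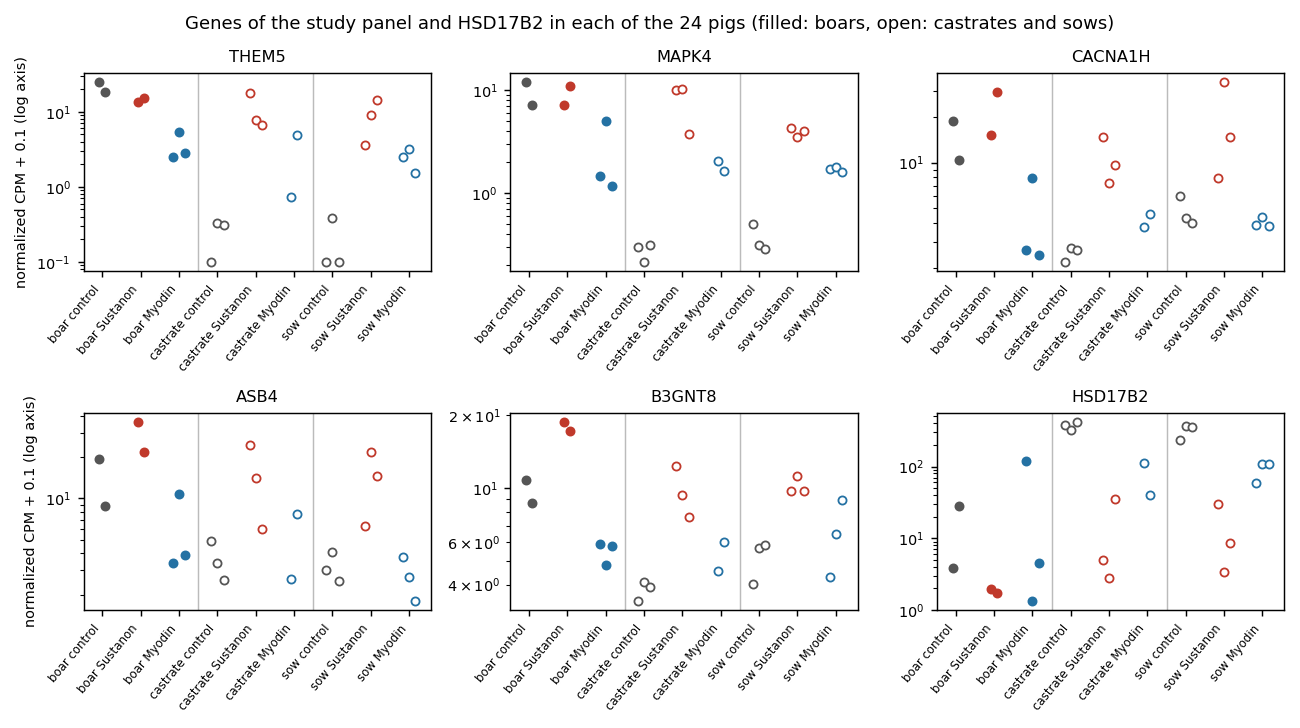
THEM5, MAPK4, CACNA1H, ASB4, B3GNT8 and HSD17B2 in each of the 24 pigs, as normalized CPM + 0.1 on a log axis, by sex type and treatment. Points are animals, filled for uncastrated boars and open for castrates and sows. In the first 5 genes the control boars lie above the castrate and sow controls, and the Myodin boars lie below the control boars except boar 23 in ASB4. In HSD17B2 the control boars lie far below the castrate and sow controls.

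GLYATL2, a glycine acyltransferase, had 1.33 and 1.11 CPM in the control boars, 7.27 and 3.68 CPM with Sustanon and 0.768, 5.75 and 2.73 CPM with Myodin. TINAG, a basement membrane protein, had 19 and 14 counts in the controls, 23, 2 and 4 counts in Myodin boars 22, 23 and 24 and 0 counts in both Sustanon boars, which puts it at least 11.5-fold lower there with 3 counts over the group as the floor, while the exact 95% counting interval of the ratio, which also covers the counts of the controls, starts at 8.87. KCNB2, ITPR3, DHDH, PPL, DHRS4, TERF2, DUOX1 and PLB1 had unadjusted p values above 0.05 in both comparisons. All of them were DEGs after Sustanon in castrates and sows, with the 3 libraries in doubt included. After Sustanon DHRS4 rose there by 1.80 and TERF2 by 1.25 on the log2 scale. The adjusted p values were 0.000457 and 8.16e-05, and 0.0434 and 0.0194 without the 3 libraries in doubt. In boars the same contrast gave 0.49 ± 0.42 and 0.08 ± 0.24 (SE). Neither gene was among the 5 DEGs when the Sustanon response of boars was tested against that of the other pigs.

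The steroids are close relatives, nandrolone being testosterone without the methyl group that is carbon 19. They were given as different esters at different doses, and each tested group had pens of its own. Compound, dose and pen therefore cannot be told apart. Between the 2 Sustanon and the 3 Myodin boars there were 2 DEGs (0.0228%), both higher with Sustanon. FHDC1 (chr8:76103631-76148690) had 8.55 and 7.82 CPM with Sustanon and 0.384, 1.60 and 1.46 CPM with Myodin, a log2 fold change of 2.84 ± 0.41 (SE, adjusted p = 0.00797). B3GNT8, which extends N-glycans and belongs to the panel (chr6:49399121-49403686), had 18.7 and 17.2 CPM with Sustanon and 5.76, 4.71 and 5.66 CPM with Myodin, with the controls between them at 10.7 and 8.55 CPM. Its log2 fold change was 1.74 ± 0.26 (SE, adjusted p = 0.00797). At an unadjusted p under 0.05, 394 genes were higher with Sustanon (4.5%) and 497 lower (5.68%).

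Both calls were lost without Sustanon boar 19 (0 DEGs), without Sustanon boar 20 (1 DEG, another gene) and when only the 7 boars were fitted (0 DEGs). The count was 35 without Myodin boar 22 and 53 without Myodin boar 23. Other genes named in this comparison included IL34, RRAGD, AJUBA, POU2AF1, ALDH1L2 and ATP1A4, higher with Sustanon, and CDHR5, FABP3, CES3, LIN7A, BATF2 and BAK1, lower. CDHR5, a brush border cadherin, had 2.48 and 3.20 CPM with Sustanon and 13.7, 38.9 and 72.0 CPM with Myodin, and FABP3, a fatty acid binding protein, had 2.31 and 0.943 CPM against 15.9, 8.58 and 11.7 CPM.

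In the other pigs Sustanon gave 178 DEGs (2.03% of the genes tested), 111 higher and 67 lower, and Myodin gave 3 DEGs (0.0343%) there, or 0 in edgeR without the 3 libraries in doubt, where 511 genes had an unadjusted p under 0.05. More of the other pigs were treated than boars, so these counts do not compare the size of the responses. The 178 genes were read in the boars, whose libraries are in neither arm of the comparison that chose them, though they share its fit and its estimate of the spread. Of the 111 that rose, 97 (87.4%) were above 0 in the Sustanon boars, against 48.6% of all genes, and 49 (44.1%) also had an unadjusted p under 0.05, against 6.28%. Their median log2 fold change was 0.90 in the boars and 1.42 in the other pigs. Of the 67 that fell, 56 (83.6%) were below 0 in the Sustanon boars, against 51.3% of all genes, and 22 (32.8%) had an unadjusted p under 0.05, against 4.84%. Their median was -1.08 in the boars and -1.62 in the other pigs. The medians in the other pigs are those of genes chosen there for size.

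Called without the 3 libraries whose labels are in doubt, the set shrank to 32 genes that rose, 27 of them among the 111, and 20 that fell, 16 of them among the 67. In the Sustanon boars 26 of the 32 were above 0, against 48.4% of all genes in that fit, and 14 also had an unadjusted p under 0.05, against 5.99%. Of the 20, 14 were below 0, against 51.5%, and 3 had an unadjusted p under 0.05, against 4.44%. Across all 8754 genes the log2 fold changes of boars and of other pigs, which share no library, correlated with r = 0.26 for Sustanon and r = -0.17 for Myodin. Genes are not independent replicates, and these values are a description.

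In the Myodin boars the same 178 genes gave no common picture. Of the 111, 80 (72.1%) were above 0, against 53.3% of all genes, and of the 67, 31 (46.3%) were below 0, against 46.7%. The animals differed from each other. The median of the 111 genes, as log2 CPM minus the control mean, was 0.84 in Myodin boar 23 and 0.14 in boar 24, but -0.45 in boar 22, while it was 1.02 and 0.77 in Sustanon boars 19 and 20. The median of the 67 was -0.75, -0.09 and 0.51 in Myodin boars 23, 24 and 22, and -0.88 and -0.96 in Sustanon boars 19 and 20.

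**Figure D5:**
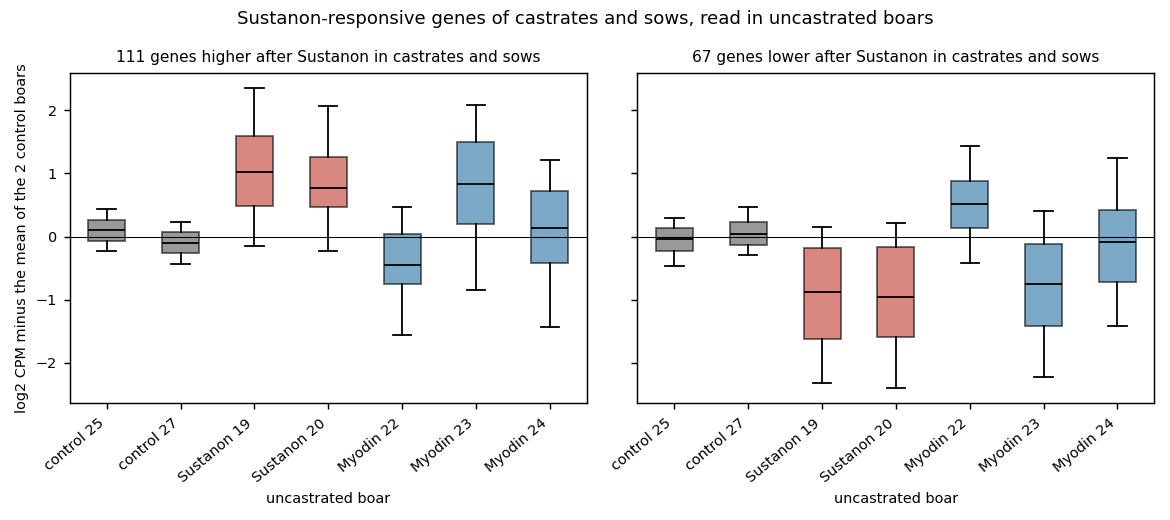
Log2 CPM minus the mean of the 2 control boars, in each uncastrated boar, for the 111 genes that rose (left) and the 67 that fell (right) after Sustanon in castrates and sows. Boxes span the quartiles with the median, and whiskers the 10th to 90th percentile over genes. Sustanon boars 19 and 20 and Myodin boar 23 lie on the side of the other pigs' response, and Myodin boar 22 lies on the opposite side.

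Over all 8754 genes, Myodin boar 22 correlated with control boar 25 at r = 0.978, and Myodin boar 23 with Sustanon boar 19 at r = 0.973, while Myodin boars 22 and 23 correlated at r = 0.954. The control boars correlated at r = 0.980. These are correlations of log2 CPM across genes within liver, and all of them are high.

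The difference between the boar response and that of the other pigs was tested itself. For Sustanon it gave 5 DEGs (0.0571%) and for Myodin 11 (0.126%). THEM5 and MAPK4 were called for both steroids. For THEM5 the difference of log2 fold changes was -6.73 ± 1.02 with Sustanon and -6.82 ± 0.97 with Myodin (SE, adjusted p = 0.0108 and 0.00291), and for MAPK4 it was -4.69 ± 0.70 and -4.84 ± 0.68 (SE, adjusted p = 0.0108 and 0.00291). MPDZ was the only gene called in the other direction, with 2.15 ± 0.35 and 1.91 ± 0.34 (SE, adjusted p = 0.0162 and 0.0297). The control boars had the lowest levels of all 24 pigs, while the castrate and sow controls had between 167 and 224 CPM and the treated castrates and sows between 76.4 and 173 CPM.

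TNFAIP8L1 was called for Sustanon, ENSSSCG00000038557 for both steroids, and PTPMT1, TMEM63B, PIK3R2, PARVB, TBC1D24, MFSD4A and ENSSSCG00000034853 for Myodin, all with a difference below 0. PTPMT1, a mitochondrial phosphatase needed to make cardiolipin, had 61.8 and 43.9 CPM in the control boars and 40.5, 24.3 and 30.0 CPM in the Myodin boars, and its log2 fold change with Myodin was -0.74 in boars and 1.10 in the other pigs, or 1.09 there without the 3 libraries in doubt (adjusted p = 0.394). MFSD4A, a membrane carrier, had 14 and 11 counts in the control boars and 2, 0 and 0 counts in the Myodin boars, a ratio of 19.9 with a counting interval from 4.97 to 174 (95%, exact, counting error only).

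Both counts depended on the controls. Without the 3 libraries whose labels are in doubt they were 0 for Sustanon (600 genes at an unadjusted p under 0.05, against 653 or 7.46% with them) and 1 for Myodin, ENSSSCG00000038557. The Sustanon count was also 0 without control boar 25, Sustanon boar 19 or Sustanon boar 20 and 2 without control boar 27. The Myodin count was 3 without control boar 25 or Myodin boar 24, 4 without control boar 27 or Myodin boar 23 and 176 without Myodin boar 22.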

How the data were processed

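Liver RNA of 24 pigs was measured as 1 library per animal. From poly-A RNA the authors made stranded TruSeq libraries, sequenced them as 75 nt paired-end reads, trimmed them with Skewer and aligned them with STAR 2.5. The submitters' processing notes name Sscrofa11.1, DESeq2 and FastQC. The counting tool and annotation are not given in the sources used here. The deposited tables hold raw counts per gene and log2(TPM + 1) values, both as made by the authors. The table has 13463 genes, 3779 of them without a symbol, of which 354 were filled from a table of gene names.

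The main test was edgeR 4.0.16 (R 4.3.3), a quasi-likelihood F test on the deposited counts with TMM scaling, a filter on low counts by group, and 1 fit of all 24 libraries with 9 group means (15 residual degrees of freedom) and contrasts among the boar groups. For all injected boars the contrast was the mean of the Sustanon and Myodin groups minus the controls, with equal weight for each steroid. P-values were adjusted by the Benjamini-Hochberg method over all 8754 genes tested, and a DEG had an adjusted p under 0.05 and a log2 fold change of 1 or more in either direction. CPM values are normalized with TMM, and differences between boars use log2 CPM with a prior count of 2. Nothing in the labels says whether animals shared litters, so p-values measure the spread between these pigs. Intervals and floors (3 counts) cover counting error only.

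In each boar comparison, called genes with a symbol and a mean log2 CPM of at least 1 were named, and up to 20 were filled by smallest unadjusted p among genes past that fold change whose groups did not overlap. List members, up to 4 per list by unadjusted p, and the study panel were added. Other named genes were chosen after their values were seen. The members and the 28 pathway and 10 marker lists were chosen with earlier results of these data known. A gene of the fatty acid oxidation list is not reported here and was left out of that list. Alternatives were RLE scaling, no filter, DESeq2 1.42.0, limma 3.58.1 on the deposited log2(TPM + 1) values, fits of the boars alone, an unadjusted threshold, no fold threshold, leaving out 3 libraries whose Y-linked counts go against their labels, and leaving out each of the 7 boars. The castrate and sow responses of single genes without those 3 libraries were added after seeing the data. The test was checked on simulated data. There were 0 columns with no sample. Gene coordinates come from the RefSeq table of Sscrofa11.1.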

Additional observations from a re-analysis of the deposited data

Results flagged for a closer look

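Among the 5 injected boars, 1 animal stood apart in 2 of the 22 genes examined, and chance would set apart about 1 in 20 groups. In CHKA it was Myodin boar 23, whose gap to the next animal was 0.731 of the range, and in ADGRV1, an adhesion receptor, it was Sustanon boar 19, with 0.788 of the range (17.7 CPM against between 2.54 and 5.75 CPM in the other 4). The 5% limit for 5 animals is 0.71.

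The response in boars differed from that in castrates and sows, by the test of the difference, in 5 genes with Sustanon and 11 with Myodin. With Sustanon the differences of log2 fold changes, boars minus other pigs, were -4.69 for MAPK4, -6.73 for THEM5, 2.15 for MPDZ, -1.88 for TNFAIP8L1 and -4.79 for ENSSSCG00000038557. With Myodin they were -4.84 for MAPK4, -6.82 for THEM5, -1.85 for PTPMT1, 1.91 for MPDZ, -1.12 for TMEM63B, -1.07 for PIK3R2 and -3.44 for PARVB. The others with Myodin were -1.13 for TBC1D24, -5.14 for MFSD4A, -3.94 for ENSSSCG00000034853 and -6.39 for ENSSSCG00000038557. All of these rest on the same 2 control boars. Without the 3 libraries in doubt the counts of 5 and 11 were 0 and 1.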

How the results depend on the processing

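The 107 results on named genes gave 1649 values over the alternatives, of which 1320 kept their direction and side of the threshold, 126 lost significance, 203 gained it and 0 reversed. These genes had been chosen in the main fit for a large or clear difference, which makes reversals unlikely. The unadjusted threshold and no fold threshold reuse its fold changes, so neither could reverse a gene, and the unadjusted one favours gains. Counts of DEGs moved more. Among injected boars against controls the count of 5 was 1 without the 3 libraries in doubt, 11 with DESeq2, 2 in the boars alone as 3 groups, 0 in the boars alone as 2 groups, 3 with the injected boars as 1 group and 266 at an unadjusted p, and leaving out 1 boar gave 1 to 17. For Sustanon against controls the count of 0 was 49 with DESeq2, 5 with limma and 363 unadjusted, and leaving out 1 boar gave 0 to 20, the highest without Myodin boar 23, and 6 without Myodin boar 22 and 2 without Sustanon boar 20. For Myodin against controls the count of 2 was 33 with DESeq2, 4 with limma, 1 in the boars alone (neither of the 2) and 313 unadjusted, and leaving out 1 boar gave 1 to 99. For Sustanon against Myodin the count of 2 was 55 with DESeq2, 0 in the boars alone and 316 unadjusted, and leaving out 1 boar gave 0 to 53. The difference of the Sustanon response (5) was 0 without the 3 libraries in doubt, 40 with DESeq2 and 299 unadjusted, and leaving out 1 boar gave 0 to 6. The difference of the Myodin response (11) was 1 without those libraries, 80 with DESeq2 and 473 unadjusted, and leaving out 1 boar gave 3 to 176. RLE scaling, no filter and no fold threshold kept each count within 1.5 times. The cause was not tested.

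Counts of list members were added after the data were seen. The interferon count of 20 was 13 with limma and 9 to 21 when 1 boar was left out, the fatty acid count of 8 was 4 to 9 and the clearance count of 5 was 2 to 5. The counts of 97 and 56 genes shared with the other pigs were 94 to 97 and 50 to 57 over all alternatives, lowest for the second in the boars alone. No paired analysis was possible because the groups share no replicate numbers. With 2 control boars, a level that happens to be unusual in 1 of them enters every comparison with controls.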

Other observations

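Levels of genes of the translation and respiration machinery varied among boars, controls included, and both comparisons with controls share the 2 control boars. Of 33 cytoplasmic ribosomal protein genes, 31 were below 0 with Sustanon (median -0.19) and 26 with Myodin (median -0.08), against 51.3% and 46.7% of all genes. None of the 33 passed an unadjusted p of 0.05 with Sustanon, where 6.28% of all genes were higher and 4.84% lower. Just 1 was lower with Myodin, against 3.5% of all genes. In single boars, the genes above the mean of the controls numbered 30 and 3 in control boars 25 and 27, 2 and 2 in the Sustanon boars, and 1, 0 and 24 in Myodin boars 22, 23 and 24. Of 31 nuclear genes of oxidative phosphorylation, 27 were below 0 with Sustanon (median -0.19) and 25 with Myodin (median -0.17). At an unadjusted p under 0.05, 1 was lower and 1 higher with Sustanon, against 4.84% and 6.28% of all genes. With Myodin 1 was lower, against 3.5%. By boar, 23 and 8 of the 31 were above the control mean in the controls, 3 and 5 in the Sustanon boars, and 8, 5 and 18 in the Myodin boars.

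Coagulation and complement genes, which the liver secretes into blood, were above 0 in 14 of 16 with Sustanon and in 14 of 16 with Myodin, against 48.6% and 53.3% of all genes, and 2 were higher at an unadjusted p under 0.05 in each, against 6.28% and 5.77%. The 2 comparisons share their control boars, in which 3 and 13 of the 16 were above the control mean, and Sustanon boar 20 had 8 above it against 15 in boar 19. CHAC1, which breaks down glutathione, varied widely among animals given the same steroid, with 28 and 3 counts in the control boars, 14, 815 and 169 counts in Myodin boars 22, 23 and 24, and 326 and 169 counts in the Sustanon boars.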
